A study of Mus musculus with 12 samples.

Results

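Mitochondrial proteases and chaperones were measured by 24 of the 45037 probe sets on the array, and belong to 10 of the 18193 genes that the platform annotation names. The genes were chosen by symbol: a probe set entered where its annotation gives exactly 1 symbol and that symbol is Lonp1, Clpp, Clpx, Yme1l1, Afg3l2, Htra2, Hspa9, Hspd1, Hspe1 or Trap1. No measured value enters that rule, but the list was drawn up with earlier results of these data known, so the p-values given below are not independent support for it. All 10 genes had at least 1 probe set, and no probe set was removed for low signal. Lonp1 and Hspd1 had 1 probe set each, Clpp, Clpx, Htra2, Hspe1 and Trap1 had 2, Afg3l2 had 3, Yme1l1 had 4 and Hspa9 had 5. Lonp1 and Clpp lie on chromosome 17, Clpx on 9, Yme1l1 on 2, Htra2 on 6, Trap1 on 16, Hspa9 and Afg3l2 on 18, and Hspd1 and Hspe1 on chromosome 1, as does Gdap1. In the same order of chromosomes, their Entrez gene numbers in the annotation are 74142 and 53895, 270166, 27377, 64704, 68015, 15526 and 69597, and 15510 and 15528. The array holds short probes for each gene that mostly sit near the 3′ end of its transcript, and the value of a probe set is a level on the log2 scale.

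The 12 arrays came from untreated mice 2 months old, either wild type or Gdap1-/- with exon 5 of Gdap1 deleted. The Gdap1 protein sits in the outer membrane of mitochondria, and the human gene is mutated in forms of Charcot-Marie-Tooth neuropathy. Each genotype was represented by 3 arrays of sciatic nerve lysate and 3 arrays of motoneurons isolated by laser dissection, labelled as biological replicates. The samples were selected from RNA of 5 mice by RNA amount and quality, and whether nerve and motoneuron samples came from the same mice was not given in the sources used here. No Cre driver or transgene is named in the labels.

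Nearly all mitochondrial proteins are made in the cytosol. Those bound for the matrix are pulled in by the Hsp70 of mitochondria (Hspa9). Some of them are folded there by a chaperonin chamber of Hspd1 (Hsp60) with its lid Hspe1 (Hsp10). Damaged or unassembled proteins are degraded by ATP-dependent proteases: Lonp1 and the Clpx-Clpp complex in the matrix, and Afg3l2 and Yme1l1 on opposite faces of the inner membrane. Htra2 is a serine protease of the intermembrane space, and Trap1 is the Hsp90 of mitochondria. Several of these genes are known as targets of the mitochondrial unfolded protein response, a transcriptional response to misfolded protein in the organelle. Mutations in the human counterparts of Hspd1 and Afg3l2 cause inherited disease of long axons or of the cerebellum.

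Hspd1 and Hspe1 are neighbours transcribed away from each other, and the stretch between their starts is shown because the partners are described as a pair below. In the RefSeq tables for GRCm38.p6, chr1:55087933-55088147 on the plus strand lies between the nearer annotated start of Hspd1, on the minus strand, and the start of Hspe1, on the plus strand. Capitals mark each match to TTCNNGAA, the core of a heat shock element.

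Hspd1-Hspe1 shared promoter: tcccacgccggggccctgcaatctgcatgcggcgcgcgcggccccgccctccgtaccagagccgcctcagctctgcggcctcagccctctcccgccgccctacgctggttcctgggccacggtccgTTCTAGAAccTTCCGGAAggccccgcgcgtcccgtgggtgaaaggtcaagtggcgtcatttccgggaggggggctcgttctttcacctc

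The 215 bases hold 2 such matches, 89 and 79 bases upstream of the Hspe1 start and 134 and 144 bases from the Hspd1 start. The reversed arrangement GAANNTTC has 1 match, which overlaps both. Hspd1 has another annotated start at position 55088243, whose transcript runs across the printed stretch. Promoter windows of 300 bases (250 before to 50 after each start) were read for 7 of the 10 genes. Member windows on chromosome 18, where Afg3l2 and Hspa9 lie, were not read, and none was found for Htra2. Of 32851 windows, searched on both strands, 8.52% hold TTCNNGAA at least once and 0.524% hold it at least 2 times. GAANNTTC is in 7.86% of windows, TGATGNAA (the core of composite sites for C/EBP with ATF factors such as Atf4) in 3.97%, and the Nrf1 motif (GCGCA, any 1 base, then GCGC) in 4.60%. Among the members, Clpp has 1 TTCNNGAA match, the farther Hspd1 window has 1 match to the Nrf1 motif, and the windows of Lonp1, Clpx, Yme1l1 and Trap1 hold none of the 4 motifs. A match describes letters only; no binding was measured.

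The values are log2 expression levels as deposited, and the nerve and motoneuron arrays had different scales: array medians were 8.29 to 8.40 in nerve and 6.53 to 6.59 in motoneurons. Arrays of a tissue correlated at 0.982 to 0.993 across probe sets, and no pair was identical. Genes of motoneurons had a mean level of 10.83 to 11.21 in motoneuron arrays and 6.5 to 6.94 in nerve. Astrocyte and oligodendrocyte genes were also above the array median in the motoneuron arrays (8 of 8 measured in each list), so the captured material was not purely neuronal. Fewer cells of a type and less RNA per cell cannot be told apart in such samples. The deletion itself could not be checked, because per the labels no Gdap1 probe set lies in the deleted exon. Xist, transcribed in female cells, was high in 1 of 3 nerve arrays of each genotype. It was high in all 3 wild type motoneuron arrays and low in 1 of 3 knockout motoneuron arrays, so sex was not balanced between genotypes in motoneurons or between tissues.

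The first comparison set knockout against wild type motoneurons. None of the 24 probe sets passed limma's test at an adjusted p of 0.05, and the share of all probe sets that passed was 0%. The lowest unadjusted p among the members belonged to Lonp1, whose 3 knockout arrays all lay above the 3 wild type arrays, as did those of Trap1 and Htra2. The 3 knockout arrays lay below wild type for the leading probe set of Yme1l1, meaning the probe set with the highest mean over all arrays. The chaperones Hspa9, Hspd1 and Hspe1 had overlapping genotypes in their leading probe sets, with differences between -0.10 and -0.030 on the log2 scale.

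Lonp1 degrades oxidised and misfolded matrix proteins and binds mitochondrial DNA. Its levels in motoneurons were 10.74, 10.75 and 10.63 in wild type arrays and 11.14, 11.20 and 11.26 in knockout arrays. The groups did not overlap, and the lowest knockout array stood above the highest wild type array by more than the spread within either group. The difference was 0.49 (SE 0.10, 95% interval 0.26 to 0.73), with an adjusted p of 0.115 in limma's fit, which misses the threshold.

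Clpp is the proteolytic chamber and Clpx the ATPase that unfolds substrates for it. The leading Clpp probe set read 12.88, 12.90 and 12.66 in wild type and 12.96, 12.75 and 12.73 in knockout motoneurons, a difference of 0.0017 with overlapping groups. The other Clpp probe set read 11.33, 11.21 and 11.23 against 11.65, 11.39 and 11.36, so that its genotypes did not overlap, at a difference of 0.21 (SE 0.110, adjusted p = 0.378, limma). The leading Clpx probe set pointed the other way. Clpx read 10.04, 9.95 and 9.55 in wild type and 9.50, 9.34 and 9.56 in knockout arrays. The third wild type array lay among the knockout values, and the difference was -0.38 (SE 0.172, 95% interval -0.78 to 0.022; limma adjusted p = 0.318).

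Yme1l1, the protease of the intermembrane side, cleaves the fusion protein Opa1 and clears unassembled inner membrane proteins. Its leading probe set read 11.59, 11.53 and 11.21 in wild type and 10.99, 11.04 and 11.14 in knockout motoneurons. All knockout arrays were lower, at a difference of -0.39 (SE 0.124, 95% interval -0.67 to -0.099, limma adjusted p = 0.192). The other 3 Yme1l1 probe sets differed from it in sign, with differences of 0.043, 0.10 and 0.17 and overlapping genotypes.

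Afg3l2, a subunit of the m-AAA protease on the matrix side, processes the ribosomal protein Mrpl32. Its leading probe set read 11.32, 11.44 and 10.35 in wild type and 10.76, 10.61 and 10.80 in knockout motoneurons. The third wild type array was the lowest of the 6, so the genotypes overlapped, and the difference was -0.32 (SE 0.269, limma adjusted p = 0.599). The other Afg3l2 probe sets gave -0.12 and 0.22.

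Htra2 (Omi) is released on mitochondrial damage and binds inhibitors of apoptosis such as Xiap. The leading Htra2 probe set read 12.14, 12.19 and 12.03 in wild type and 12.39, 12.28 and 12.36 in knockout motoneurons. The other read 10.20, 10.27 and 10.27 against 10.62, 10.57 and 10.54. Both probe sets placed every knockout array above every wild type array. Their differences were 0.22 (SE 0.0753) and 0.33 (SE 0.109), with limma adjusted p-values of 0.210 and 0.201.

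Among the chaperones, Trap1 stood apart from the other 3 genes. The leading Trap1 probe set read 12.24, 12.07 and 12.37 in wild type and 12.59, 12.60 and 12.61 in knockout motoneurons, a difference of 0.37 (SE 0.0877, limma adjusted p = 0.126). The knockout arrays were close together (SD 0.00681, n = 3) and above all wild type arrays. The second Trap1 probe set did not share this pattern: it read 9.71 in each wild type array and 9.60, 9.79 and 9.64 in the knockout, a difference of -0.032.

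Hspd1 and Hspe1 had nearly the same levels in both genotypes. Hspd1 read 13.35, 13.54 and 13.58 in wild type and 13.50, 13.47 and 13.42 in knockout motoneurons, a difference of -0.030 with a 95% interval of -0.19 to 0.13. Hspe1 read 14.24, 14.33 and 14.16 against 14.21, 14.08 and 14.13, a difference of -0.10 with a 95% interval of -0.23 to 0.023. For Hspa9, the leading probe set gave -0.037 (95% interval -0.18 to 0.11). Its 5 probe sets ranged from -0.36 to 0.19. Of its dimmer probe sets, with levels of 5.93 to 6.58 in motoneurons, 2 had all knockout arrays above wild type and 1 had them all below, each with a limma adjusted p of at least 0.395.

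**Figure D1:**
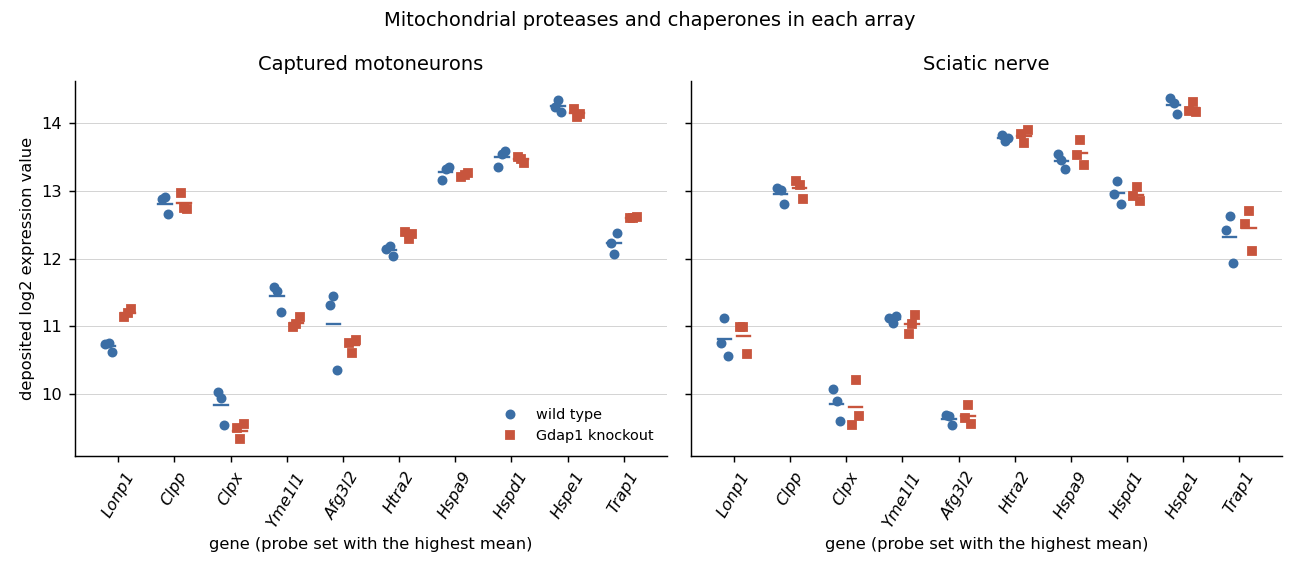
Deposited log2 level (vertical axis) of the leading probe set of each gene (horizontal axis) in every motoneuron and sciatic nerve array, with wild type as circles, knockout as squares and group means as short lines. In motoneurons the knockout squares of Lonp1, Htra2 and Trap1 lie above all wild type circles and those of Yme1l1 below them, while in nerve the genotypes of all 10 genes overlap; the panels are on separate scales and genes are not to be compared by height.

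Counted over the 24 probe sets, 7 had all knockout motoneuron arrays above wild type, against 12.7% of all probe sets, and 2 had them all below, against 9.77%. An unadjusted p under 0.05 was found for 5 of 24, against 17% of all probe sets. The first of these counts is above its background share and the others are near theirs; the 7 probe sets belong to 5 genes, since Htra2 and Hspa9 each have 2 of them. The median difference of the 10 leading probe sets was -0.034, against 0.039 over all probe sets.

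The third wild type motoneuron array decided how many members passed. It correlated at 0.987 on average with its own group and at 0.989 with the knockout arrays. Without it, 4 of 24 probe sets passed (10.3% of all probe sets did), each the leading one of its gene: Lonp1 at 0.46 (limma adjusted p = 0.0267), Trap1 at 0.45 (0.0112), Yme1l1 at -0.50 (0.0177) and Afg3l2 at -0.66 (0.0119). Other probe sets of these genes did not pass in that fit, and most had the opposite sign. Those of Yme1l1 gave 0.11, 0.13 and 0.53, those of Afg3l2 -0.53 and 0.50, and that of Trap1 -0.033. With every array kept but weighted by its fit, 6.5% of all probe sets passed, and of the members Lonp1, Trap1 and Yme1l1, with limma adjusted p-values of 0.0301, 0.0283 and 0.0407.

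Some other measures differed by genotype in the motoneuron arrays, while others overlapped. The 3′ probe set for 18S RNA read 9.25, 9.11 and 10.27 in wild type and 10.41, 10.48 and 10.15 in knockout arrays, with overlap. The spiked bioB control read 10.87 to 11.10 in wild type and 10.27 to 10.48 in knockout arrays. It also separated the genotypes in nerve, at 11.15 to 11.47 against 10.17 to 10.31, so the level of this control and genotype cannot be told apart in either tissue. All 8 endothelial and mural genes had lower means in the knockout, with a list mean of 6.84 to 7.13 in wild type and 6.53 to 6.70 in knockout arrays. Oligodendrocyte genes had lower means in 7 of 8 cases (10.73 to 11.34 against 10.60 to 10.98) and astrocyte genes in 5 of 8 (10.91 to 11.25 against 10.56 to 10.92). Motoneuron genes were lower in 6 of 9 cases (10.99 to 11.20 against 10.83 to 11.21) and fibroblast genes in 5 of 8. So were 4 of 8 microglia and macrophage, 3 of 6 Schwann cell, 3 of 6 adipocyte and 1 of 8 skeletal muscle genes. None of these marker genes passed limma's test. The part of these measures in the member differences was not tested.

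The next comparison set knockout against wild type sciatic nerve. No member passed limma's test, and 0% of all probe sets did. Unadjusted p-values were at least 0.156 in all 24 probe sets, against 2.31% of all probe sets under 0.05. No probe set had non-overlapping genotypes, against 3.58% of all with knockout above and 3.67% with knockout below. Differences of the leading probe sets ran from -0.076 for Yme1l1 to 0.12 for Trap1.

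The spread in nerve lay between the arrays of a genotype. Lonp1 read 10.75, 11.13 and 10.56 in wild type and 10.99, 11.00 and 10.60 in knockout nerve, a difference of 0.048 (95% interval -0.39 to 0.49). Trap1 read 12.42, 12.63 and 11.93 against 12.51, 12.71 and 12.11, a difference of 0.12 (95% interval -0.38 to 0.62). The intervals are wide enough that differences of the size seen for Trap1 in motoneurons were not detectable here. Htra2, at 13.82, 13.73 and 13.78 against 13.83, 13.71 and 13.89, varied less and differed by 0.034.

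In both genotypes the array numbered 3 was the lowest of its group for 7 of 10 leading probe sets, a pattern noticed after the values were seen. These were Lonp1, Clpp, Afg3l2, Hspa9, Hspd1, Hspe1 and Trap1. Over all probe sets, 16.6% were lowest in array 3 of both genotypes. The same arrays were the lowest for all 6 measured adipocyte genes and the highest for all 6 measured Schwann cell and myelin genes, and they were the lowest for 6 of 8 microglia and macrophage genes. The adipocyte list mean was 13.70, 13.99 and 12.93 in wild type and 13.58, 14.08 and 12.94 in knockout nerve, in the order of the array numbers, and the Schwann list mean was 14.08, 14.03 and 14.24 against 14.16, 14.04 and 14.30. Skeletal muscle genes varied more, from 7.99 to 13.64 in wild type and 9.54 to 10.73 in knockout nerve. The part of fat, muscle, macrophage and Schwann cell content in the member levels was not tested.

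**Figure D2:**
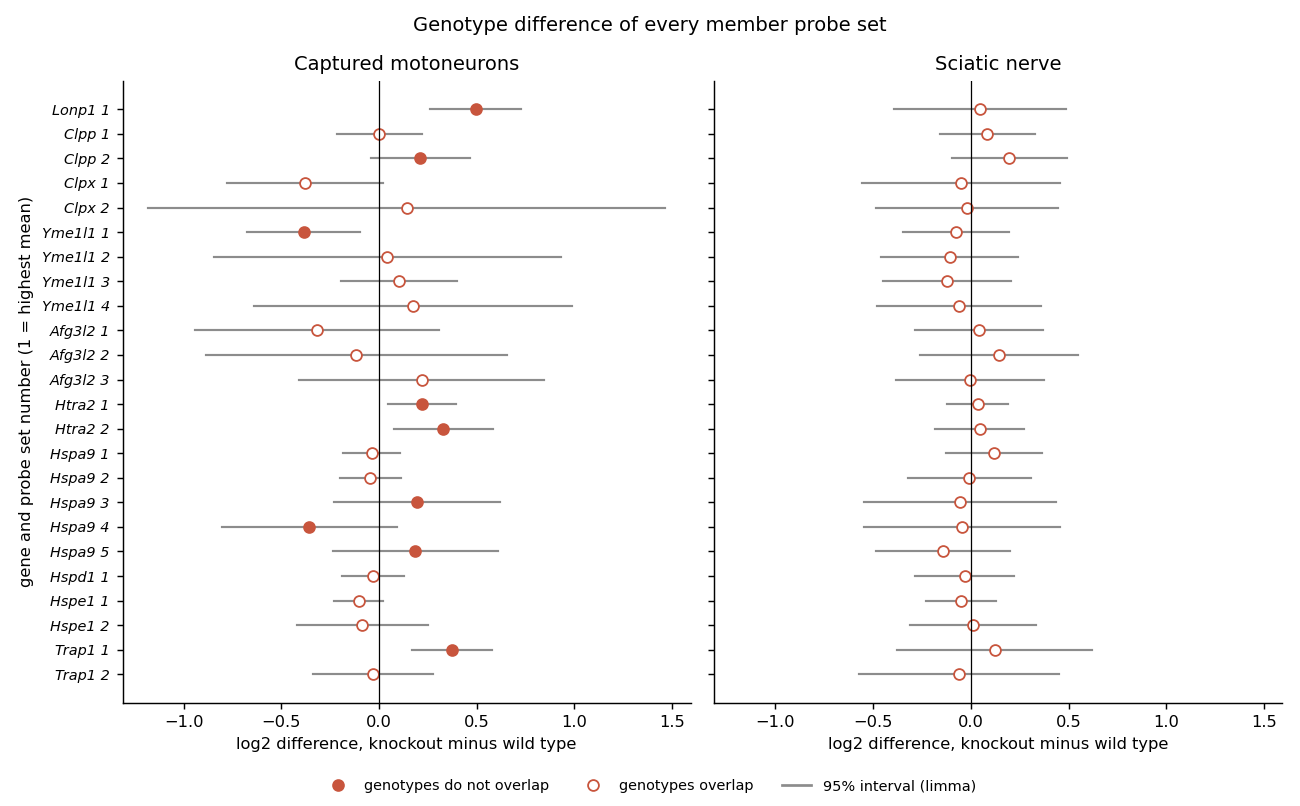
Knockout minus wild type difference on the log2 scale (horizontal axis) of each of the 24 probe sets (vertical axis) in motoneurons and in nerve, with 95% intervals from limma; filled points mark probe sets whose genotypes do not overlap. Filled points appear in the motoneuron panel alone, 7 to the right of 0 and 2 to the left, and no difference passed at an adjusted p of 0.05.

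Whether the genotype difference itself differed between tissues was tested as an interaction. No member passed limma's test, with 0% of all probe sets passing, and no member had an unadjusted p under 0.05, against 7.54% of all probe sets. The estimate for Lonp1 was 0.45 larger in motoneurons (SE 0.217, 95% interval -0.026 to 0.92, limma adjusted p = 0.673). Trap1 gave 0.25, the leading Htra2 probe set 0.19 and Yme1l1 -0.31, with limma adjusted p-values of 0.828, 0.687 and 0.696.

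The remaining comparison set motoneurons against nerve within each genotype. Array medians differed between the tissues as deposited, so all 12 arrays were quantile normalized together, and each direction is given with the scalings in which it held: as deposited, quantile normalized, and centred on array medians. In these scalings the median probe set differed by -1.09, 0.15 and 0.67 in wild type and by -1.04, 0.16 and 0.74 in knockout. After quantile normalization, 16 of 24 member probe sets were higher in wild type motoneurons, against 39.6% of all probe sets, and 5 were lower, against 32.9%. In the knockout 17 were higher, against 40.4% of all, and 5 lower, against 33.6%. The genotypes share no array here, but both comparisons use the same joint normalization. Of the member probe sets, 15 were higher in both genotypes, 5 lower in both and none opposite. The share of all probe sets with the same call in both genotypes was not counted, so no reading is drawn from this agreement.

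Fewer members held their call in all 3 scalings. In wild type 4 were higher, against 14.3% of all probe sets, and 3 lower, against 24.2%. In the knockout 5 were higher, against 15.2%, and 2 lower, against 24.4%. These counts of higher probe sets are near the background shares, and those of lower probe sets are below them. Higher in both genotypes and all scalings were both brighter Afg3l2 probe sets, the second Hspa9 probe set and Hspd1, joined by Lonp1 in the knockout. Lower in both were the second Clpx and the fourth Yme1l1 probe set, joined by the second Htra2 probe set in wild type.

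Afg3l2 had the largest tissue difference in the direction of motoneurons among the leading probe sets. It read 9.69, 9.69 and 9.55 in wild type nerve and 9.65, 9.84 and 9.56 in knockout nerve, below every motoneuron value given above on the deposited scale. Its mean rank among the probe sets of an array was at percentile 63.5 in wild type nerve and percentile 83.7 in wild type motoneurons, and 63.7 and 81.6 in the knockout. The quantile-normalized difference was 2.40 (SE 0.263, adjusted p = 9.59e-05) in wild type and 2.10 (SE 0.141, adjusted p = 2.64e-06) in knockout, by limma. As deposited it was 1.40 and 1.04, and centred 3.16 and 2.82.

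Hspd1 read 12.96, 13.15 and 12.80 in wild type nerve and 12.92, 13.05 and 12.84 in knockout nerve, below all motoneuron arrays on the deposited scale. The quantile-normalized difference was 1.03 (SE 0.109) in wild type and 1.07 (SE 0.0693) in knockout, with limma adjusted p-values of 7.67e-05 and 2.14e-06. Its partner Hspe1 was higher by 0.41 and 0.34 after quantile normalization but lay at -0.019 and -0.072 as deposited. Lonp1 was higher by 0.76 in wild type and 1.18 in knockout motoneurons, with limma adjusted p-values of 0.00510 and 9.75e-05, and as deposited gave -0.11 and 0.34.

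Htra2 was the one gene whose leading probe set was lower in motoneurons after quantile normalization, at -1.10 (SE 0.0741) in wild type and -0.92 (SE 0.0701) in knockout, with limma adjusted p-values of 6.75e-06 and 5.68e-06. Its deposited levels were 13.71 to 13.89 in nerve and 12.03 to 12.39 in motoneurons, without overlap. This direction was not stable: with median centring the difference was 0.11 in wild type and 0.31 in knockout. The second Htra2 probe set kept its sign, at -0.45 and -0.15 after centring.

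Probe sets of Clpx and Yme1l1 disagreed on the tissue. The leading Clpx probe set was higher in wild type motoneurons by 1.05 after quantile normalization, while the other Clpx probe set was lower there, at 9.62, 9.65 and 9.56 in wild type nerve and 4.13, 3.26 and 5.81 in wild type motoneurons. In knockout arrays that probe set read 9.59 ± 0.363 (SD, n = 3) in nerve and 4.42, 4.39 and 4.82 in motoneurons. The quantile-normalized differences were -3.81 and -3.50, and the sign and call held in all 3 scalings. Its mean rank went from percentile 63.2 of the array in wild type nerve to percentile 24.5 in wild type motoneurons. Likewise, the leading Yme1l1 probe set was higher in motoneurons by 1.11 and 0.86, while the fourth read 10.12 to 10.74 in nerve and 4.44 to 5.61 in motoneurons, at differences of -4.13 and -3.87. Within each tissue the genotypes of both deviating probe sets overlapped. The 3′ minus 5′ signal of the actin control, a measure of transcript truncation, was 0.687 to 1.17 in nerve and 1.5 to 1.97 in motoneuron arrays, and its part in these probe sets was not tested.

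**Figure D3:**
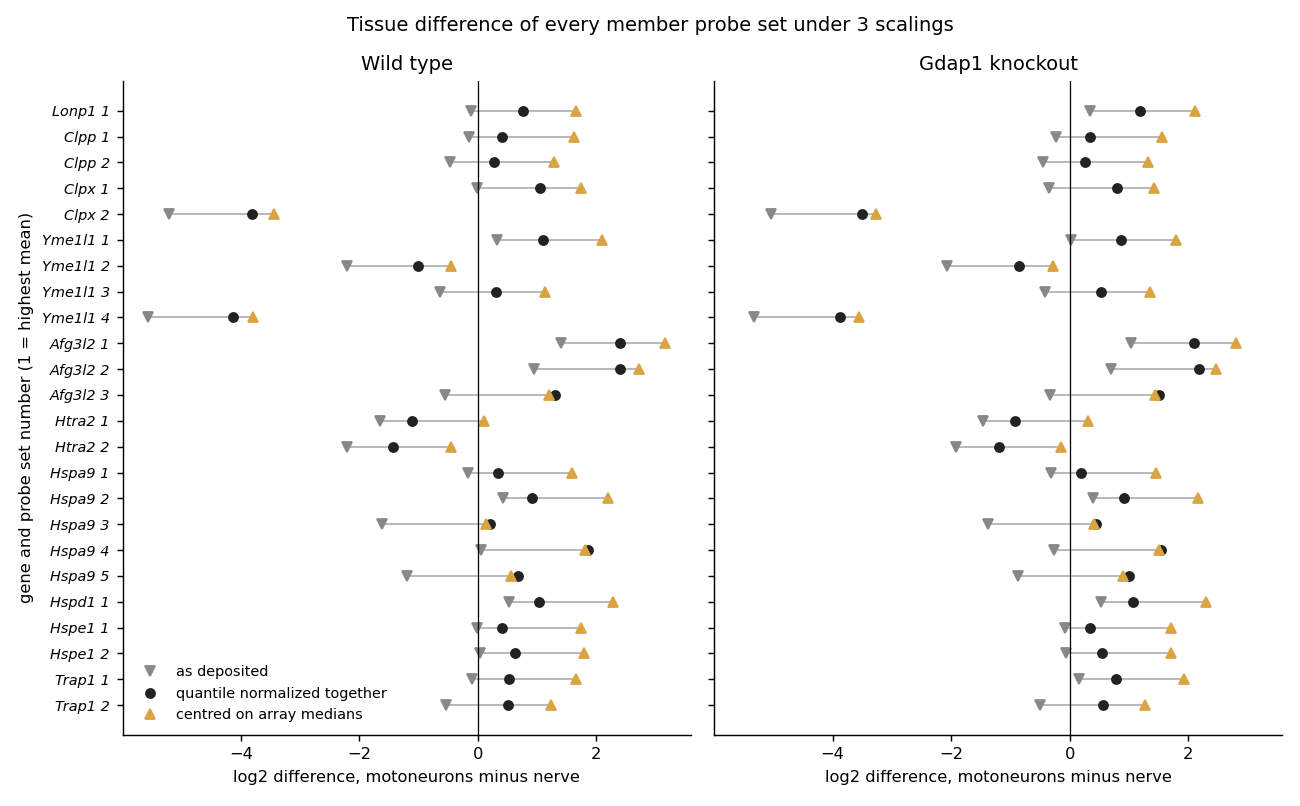
Motoneuron minus nerve difference on the log2 scale (horizontal axis) of each of the 24 probe sets (vertical axis) in wild type and knockout, as deposited (downward triangles), quantile normalized together (circles) and centred on array medians (upward triangles). Afg3l2 1 and 2 and Hspd1 stay to the right of 0 and Clpx 2 and Yme1l1 4 to the left in each scaling, whereas Htra2 1 crosses 0.

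Differences between partner genes within an array do not depend on the centring of that array. Only their change between groups can be read, since probe sets differ in brightness. Hspd1 minus Hspe1 was -1.29 ± 0.135 in wild type nerve and -1.28 ± 0.0319 in knockout nerve, against -0.75 ± 0.153 in wild type and -0.68 ± 0.0587 in knockout motoneurons (SD, n = 3 each). The tissues did not overlap and the genotypes did. With 3 arrays against 3, an exact two-sided permutation test cannot give a p below 0.1, so none was used.

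Afg3l2 minus Yme1l1, the matrix-side against the intermembrane-side protease, also separated the tissues, at -1.47 ± 0.126 and -1.35 ± 0.220 in wild type and knockout nerve and -0.40 ± 0.404 and -0.33 ± 0.0922 in motoneurons (SD, n = 3). These are leading probe sets. As deposited, the second Afg3l2 probe set was also higher in motoneurons, at 0.96 in wild type and 0.70 in knockout, while the third gave -0.55 and -0.33. The other Yme1l1 probe sets were lower in motoneurons on that scale. Clpx minus Clpp separated the genotypes in motoneurons, with -2.84, -2.96 and -3.10 in wild type and -3.46, -3.41 and -3.17 in knockout arrays. The closest arrays of the genotypes lay at -3.10 and -3.17. This holds for the leading probe sets, while the other Clpx probe set alone differed by 0.14, with overlap. Of all single probe sets, 12.7% had every knockout motoneuron array above wild type and 9.77% every one below. That share was not counted for pairs of genes. In nerve it was -3.09 ± 0.112 in wild type and -3.22 ± 0.358 in knockout (SD, n = 3), with overlap.

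**Figure D4:**
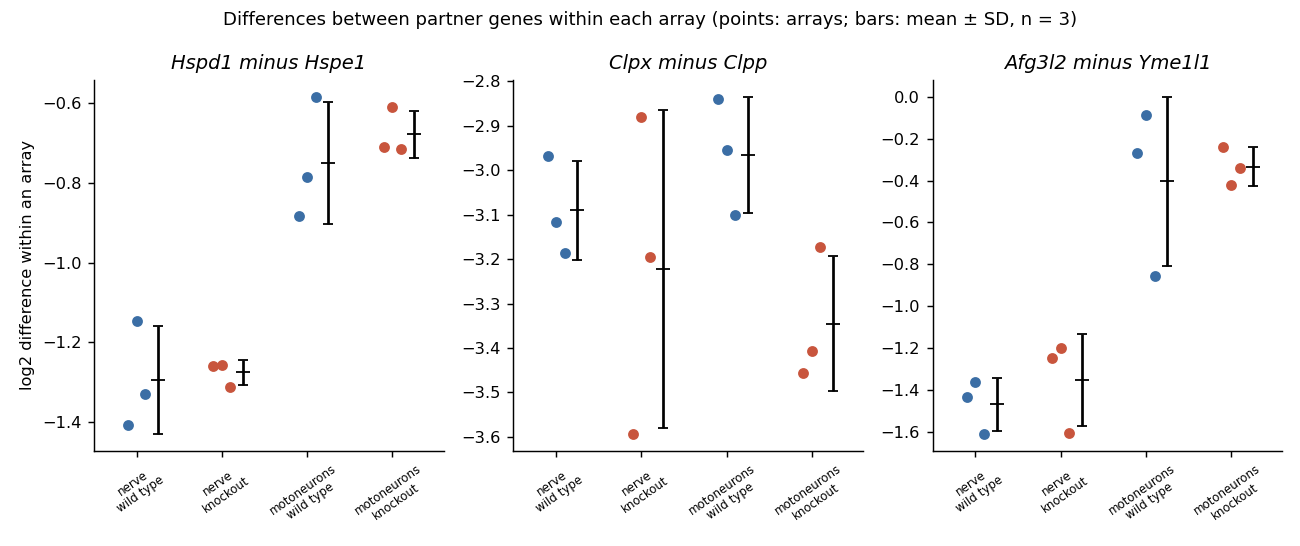
Log2 difference between the leading probe sets of partner genes within each array (vertical axis, a separate range per panel) by tissue and genotype (horizontal axis); points are arrays and bars the mean ± SD of 3 arrays. Hspd1 minus Hspe1 and Afg3l2 minus Yme1l1 separate nerve from motoneurons, and Clpx minus Clpp separates the genotypes in motoneurons alone.

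Genes that work with the members were read from 4 lists, 1 probe set per gene, the one highest on average. No gene of any list passed limma's test between genotypes in either tissue, as for all probe sets (0%). Of other mitochondrial proteases, 14 of 15 were measured, and 10 lay above 0 and 4 below in knockout motoneurons, with a median of 0.21 against 0.039 over all probe sets. The methionine aminopeptidase Metap1d read 10.61, 10.48 and 10.51 in wild type and 10.99, 11.17 and 10.85 in knockout motoneurons, a difference of 0.47 (limma adjusted p = 0.138). Afg3l1, an m-AAA subunit related to Afg3l2, gave 0.63, the peptidase Pitrm1 -0.20 and Lactb -0.40, each with a limma adjusted p of at least 0.246.

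Of co-chaperones and assembly partners, 13 of 15 were measured, with 7 above 0, 6 below and a median of 0.11. Dnajc11 read 9.92, 9.88 and 10.30 in wild type and 10.55, 10.65 and 10.56 in knockout motoneurons, a difference of 0.55 (limma adjusted p = 0.145). Bcs1l, the assembly factor of complex III, gave 0.50, the cyclophilin Ppif 0.25 and Dnajc15 -0.13.

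Of stress transcription factors linked to the mitochondrial unfolded protein response, 9 of 10 were measured, with 7 above 0, 2 below and a median of 0.16. Atf4, the central activator of the integrated stress response, read 13.06, 13.11 and 13.00 in wild type and 13.23, 13.18 and 13.22 in knockout motoneurons, a difference of 0.16 (SE 0.0530, limma adjusted p = 0.206). The deacetylase Sirt3 gave 0.21, Ddit3 (CHOP) 0.19 and Jun -0.25, with limma adjusted p-values of 0.277, 0.412 and 0.339.

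Of substrates or clients, 12 of 13 were measured, with 6 above 0, 6 below and a median of 0.019. Xiap, bound by Htra2, read 10.85, 11.11 and 10.19 in wild type and 10.03, 9.64 and 9.84 in knockout motoneurons, a difference of -0.88 (SE 0.241, limma adjusted p = 0.151). Alas1, the first enzyme of haem synthesis and a Lonp1 and Clpx substrate, gave 0.46, the complex II subunit Sdhb 0.17 and the calcium uniporter regulator Smdt1 0.16. In nerve the medians of the 4 lists, in the order given, were 0.084, 0.054, 0.10 and -0.00028, and no listed gene had an unadjusted p under 0.05.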

How the data were processed

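Each array holds deposited log2 expression values; per the submitters' processing notes the authors used Affymetrix Expression Console 1.1, and the summarization and normalization method was not given in the sources used here. Per the labels' protocols, 20 ng of RNA was amplified and biotin labelled, and nerve and motoneuron RNA was isolated with different kits. Of 45101 probe sets, 64 controls were left out and 45037 tested: 34945 have 1 gene symbol in the platform annotation, 932 several and 9160 none. Knockout was compared with wild type within each tissue on the deposited values, and tissues within each genotype after quantile normalization of all arrays. Fits used limma 3.58.1 in R 4.3.3 (lmFit, eBayes with trend), Benjamini-Hochberg adjustment over all probe sets and a threshold of 0.05. They were tested on simulated data with changes larger than the member genotype differences given here, so changes of that smaller size were not tried. Figures used matplotlib 3.10.9 in Python 3.11.15. The number of arrays limits the precision.

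The rule for named genes took every probe set of the 10 genes, led by the one with the highest mean over all arrays, and up to 4 genes per pathway list with the smallest p in motoneurons. Members, pathway lists and marker lists were chosen with earlier results of these data known. Each marker list was summarised as the mean level of its measured genes. Microglia and macrophage, fibroblast and skeletal muscle genes had list means of 6.85 to 7.41, 6.19 to 6.60 and 5.00 to 5.65 in motoneuron arrays, adipocyte genes 4.52 to 4.94 and Schwann cell genes 8.54 to 8.89. Alternatives were other scalings, array weights, Xist as a covariate, a filter for brighter probe sets, a replicate block, all 12 arrays in 1 fit and leaving out each array.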

Additional observations from a re-analysis of the deposited data

How the results depend on the processing

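The count of 0 members called between genotypes in motoneurons became 3 with array weights, where 6.5% of all probe sets were called. It ranged from 0 to 4 when 1 array was left out, with 4 without wild type replicate 3, where 10.3% of all were called. It stayed at 0 with Xist as a covariate and with a replicate block, where 0% of all were called. On brighter probe sets it was 0 of 18 member probe sets tested, with 0.271% of all called. With all 12 arrays in 1 fit it was 0, with 1.84% of all called. Replicate numbers showed no pairing of the samples in motoneurons, where same-numbered arrays correlated in their deviations at -0.0789 to 0.0904 across genotypes. In nerve the correlations were all positive, at 0.026 to 0.305, so same-numbered nerve arrays shared part of their deviations. The source of that shared part was not tested. With the replicate block the adjusted p of Lonp1 in motoneurons was 0.221, and 0 members passed in nerve. The nerve and interaction counts were 0 under every alternative run. Of 140 alternative values of the leading probe sets in motoneurons, 7 newly passed the threshold; in nerve none of 140 passed.

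For tissues, the 16 member probe sets higher in wild type motoneurons became 4 as deposited and 18 with median centring, where 6419 and 24727 of all 45037 were higher, and the 5 lower became 10 and 3, where 30573 and 11106 of all were lower. In the knockout, 17 higher became 5 as deposited and 19 with centring (6864 and 25508 of all), and 5 lower became 12 and 2 (30398 and 11188 of all). When the probe sets of each gene were averaged, 3 genes rather than 1 were lower in each genotype. Besides Htra2 these were Clpx, at -1.383 in wild type and -1.355 in knockout, and Yme1l1, at -0.93 and -0.83. The leading probe sets of Clpx and Yme1l1 were higher, and the low ones described above enter these averages. The share of all genes is not given here, so no reading is drawn from the count. As deposited, wild type differences turned to -0.11 for Lonp1, -0.14 for Clpp, -0.019 for Clpx, -0.16 for Hspa9, -0.019 for Hspe1 and -0.097 for Trap1. None of these wild type values passed limma's test. Knockout differences turned to -0.23 for Clpp, -0.35 for Clpx, -0.32 for Hspa9 and -0.072 for Hspe1. Of these, Clpp and Hspa9 passed (limma adjusted p = 0.0488 and 0.00764), and Clpx and Hspe1 did not. With centring Htra2 turned to 0.11 in wild type, which did not pass, and to 0.31 in knockout, which did (limma adjusted p = 0.00381). The share of called probe sets that were higher in motoneurons was 17.4% as deposited, 54.6% after quantile normalization and 69.0% after centring in wild type; the scalings differ by construction in the level they hold equal.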

Other observations

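Most genes of the pathway lists had no tissue direction that held across scalings: in wild type the difference depended on the scaling or was not called for 10 of 14 other proteases, 11 of 13 co-chaperones, 7 of 9 stress transcription factors and 9 of 12 substrates, and in knockout for 10, 11, 7 and 7. The same was true of most probe sets. Of all probe sets, 14.3% were called higher and 24.2% lower in all 3 scalings in wild type, and 15.2% and 24.4% in knockout. The genes named here are among the exceptions in the lists and were chosen after their values were seen. Each held its direction and its call by limma in all 3 scalings. Atf5, a transcription factor of the mitochondrial stress response, read 12.58 to 12.94 in nerve and 8.08 to 8.61 in motoneurons, with quantile-normalized differences of -3.55 (SE 0.159) in wild type and -3.57 (SE 0.155) in knockout. Ppif, the cyclophilin of the permeability transition pore, read 10.08 to 10.49 in nerve and 12.09 to 12.45 in motoneurons, at differences of 2.65 and 2.96. Esrra, a nuclear receptor of oxidative metabolism, was higher in motoneurons by 2.12 and 2.18.

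Among substrates, the mitochondrial DNA packaging protein Tfam, degraded by Lonp1, was higher in motoneurons by 1.57 in wild type and 1.36 in knockout. The calcium uniporter pore Mcu was higher by 1.48 and 1.68, and the fusion protein Opa1 by 1.07 and 0.85. Of the other proteases, Pitrm1 was higher by 1.46 and 1.41, while Afg3l1 was lower, at -1.67 and -1.27, opposite in direction to Afg3l2, and Xpnpep3 was lower, at -1.39 and -0.90. Co-chaperones were called higher in 10 of 13 measured genes in wild type (39.6% of all probe sets were) and 11 of 13 in knockout (40.4%) after quantile normalization, but in 2 of 13 in each genotype when all 3 scalings were required (14.3% and 15.2% of all probe sets).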
